A study of Rattus norvegicus with 3 samples.

Results

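Axon guidance genes of the ephrin, Slit, Robo and netrin systems were examined in 3 normal rats, males of the outbred Sprague-Dawley stock, whose motor cortex had been dissected for mRNA sequencing. The genes were chosen by symbol alone: Eph receptors (Epha and Ephb), ephrins (Efna and Efnb), Slit1 to Slit3, Robo1 to Robo4, netrins and netrin-G (Ntn and Ntng), Unc5a to Unc5d, Dcc and Neo1. This rule found 41 genes among the 30957 in the tables, each with a single gene ID. The animals, numbered 32, 39 and 68, form 1 group with no treatment at a time of 8 weeks, which the labels do not define further, and 1 mRNA library was made from each. With no second group, the data answer which members the dissected tissue expresses, in what order, and how far these animals differ.

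Axon guidance systems pair a ligand with a receptor on the growth cone. Ephrins are bound to the cell surface, A ephrins by a lipid anchor and B ephrins by a transmembrane segment, and their Eph receptors are tyrosine kinases, so the signal needs cell contact and can run in both directions. Slits are secreted and act mostly as repellents through Robo receptors, while netrin-1 attracts axons through Dcc and repels them through Unc5 receptors. In the developing motor cortex these systems steer corticospinal and callosal axons, and in the adult brain several of them act at synapses, on glia and on vessels.

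Values are FPKM, fragments scaled by gene length and by library size, so that genes can be set side by side per length as far as the gene models allow. At the depth inferred for these libraries, 1 FPKM corresponded to 15.5 to 17.7 fragments per kilobase. All 7 markers of cortical glutamatergic neurons passed the test for a level above 1 FPKM described below, among them Slc17a7, a vesicular glutamate transporter, at 521, 537 and 495 FPKM in animals 32, 39 and 68. The libraries differed in other tissue markers. The choroid plexus gene Ttr stood at 8.36, 615 and 7264 FPKM in animals 32, 39 and 68. Summed levels in the same order were 3124, 4809 and 8390 FPKM for 6 oligodendrocyte markers, and 124, 98.4 and 236 FPKM for 7 markers of striatal neurons. In bulk tissue, fewer cells of a type and less RNA per cell cannot be told apart.

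Guidance genes were widely detected. A mean of at least 1 FPKM was reached by 37 of the 41, beside 13378 of all 30957 genes, of which 12028 were at 0 in every animal. All 37 were also at 1 FPKM or more in each animal. Their median level was 8.71 FPKM, against 10.4 FPKM over the 13378 genes. A mean of 10 FPKM or more was found for 14 members. Among genes matched to a promoter (below), 11 of 34 members and 4979 of 13165 genes reached that level. Of the 41 members, Epha4 was highest at 60.1 ± 1.79 FPKM (SD, n = 3) and Epha1 lowest at 0.0966 ± 0.0586, a ratio of means of 623. A level different from 1 FPKM was tested on log2(FPKM + 0.1) with limma over the 16943 genes that averaged 0.1 FPKM or more, at a Benjamini-Hochberg adjusted p under 0.05. Of the 40 members tested, 37 were above 1 FPKM, beside 72.2% of all genes tested, and Epha2, Efna4 and Ntn5 were below, beside 13.9%. Epha1 fell under the filter and was not tested. The limma call for Ntn1, with an adjusted p of 0.0481, was lost without animal 39 (0.181) or 68 (0.115). It was also lost with a pseudocount of 1 (limma adjusted p = 0.0523), without a trend in the prior (0.0716), with equal totals (0.054) and without moderation of variances (0.201). Without animal 39 the calls for Dcc (adjusted p = 0.0856 in limma) and Robo4 (0.0732) were lost as well, Dcc also without moderation (0.141), and Robo4 was also lost without animal 32 (0.0936). Epha2 no longer passed when any 1 of the 3 animals was left out (adjusted p of 0.0753 to 0.211 in limma). Ranked by mean within each family, 18 of the 33 neighbouring pairs had ranges over animals that did not overlap, and 15 had ranges that did. The ranking used the same 3 animals, and pairs of other genes were not counted, so this describes these pairs only.

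**Figure D1:**
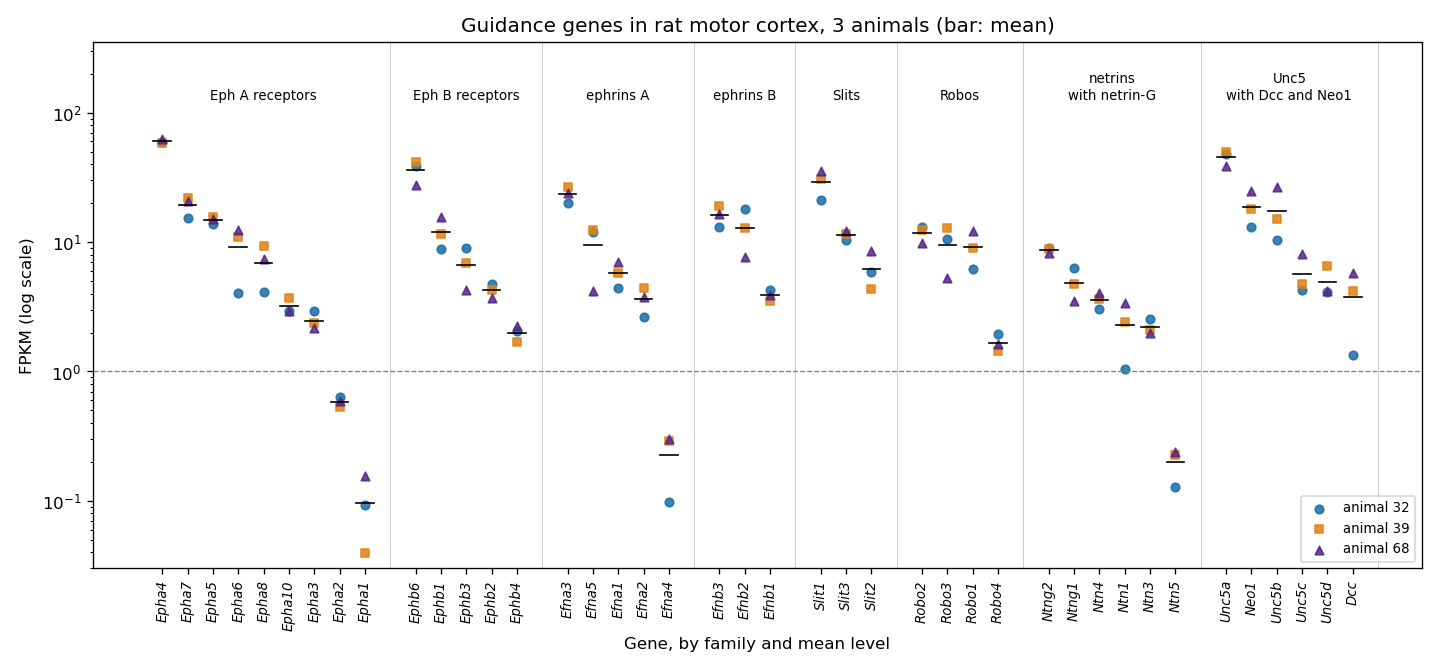
FPKM (log axis) of each of the 41 guidance genes in animals 32 (circles), 39 (squares) and 68 (triangles), ordered by family and mean, with a bar at the mean of 3 animals and a dashed line at 1 FPKM. Epha4 tops the Eph receptors with nearly the same value in each animal, and Epha1, Epha2, Efna4 and Ntn5 lie under the line in every animal.

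Promoter sequence, which the choice of genes did not use, was compared between members at high and at low levels. RefSeq promoters on the GRCr8 build matched 34 members, and Efnb3, Epha4, Ntn1, Slit1, Slit2, Unc5c and Unc5d had no entry. Only the first entry listed for a symbol was used, for members and all other genes. Each window thus stands for a single start site, which need not be the one used in this tissue. In the 250 bases before the start site, members held a median of 15.5 CpG dinucleotides against 13 for the 13165 genes of the tables that matched. That median was 4 for matched genes under 1 FPKM, 15 from 1 to under 10 FPKM and 18 at 10 FPKM or more. A CpG-rich window was taken as at least 50% G and C and an observed to expected CpG ratio of at least 0.6. It was found in 20 of the 34 members (58.8%), near the 51.5% of all matched genes. Of 11 matched members at 10 FPKM or more, 9 were CpG-rich (81.8%), as were 11 of 19 from 1 to under 10 FPKM (57.9%) and 0 of the 4 under 1 FPKM. Across all matched genes in the same classes of level, 72.3%, 57.3% and 18.9% were CpG-rich, so members followed the order of genes at large. The motif TATAAA, searched on both strands, was in 0 of the 34 windows and in 9.15% of those of all matched genes; this says only that these letters are not in these windows.

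The windows of the 2 matched members highest and the 2 lowest in level are printed 5′ to 3′ on the gene's strand, with each CpG in capitals, to let the ends of the range be compared. Unc5a (45.3 ± 5.80 FPKM) lies at chr17:9675664-9675913 on the minus strand of GRCr8 and has 25 CpG. Ephb6 (36.0 ± 7.49 FPKM) lies at chr4:71458382-71458631, plus strand, with 14. Ntn5 (0.198 ± 0.0613 FPKM) lies at chr1:105293158-105293407, plus strand, with 9, and Epha1 at chr4:72227475-72227724, minus strand, with 10.
Unc5a: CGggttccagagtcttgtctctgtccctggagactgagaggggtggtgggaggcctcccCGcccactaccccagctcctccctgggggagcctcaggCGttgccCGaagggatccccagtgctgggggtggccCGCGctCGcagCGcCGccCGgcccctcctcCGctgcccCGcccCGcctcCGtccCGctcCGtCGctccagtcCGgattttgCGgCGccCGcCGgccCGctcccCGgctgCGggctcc
Ephb6: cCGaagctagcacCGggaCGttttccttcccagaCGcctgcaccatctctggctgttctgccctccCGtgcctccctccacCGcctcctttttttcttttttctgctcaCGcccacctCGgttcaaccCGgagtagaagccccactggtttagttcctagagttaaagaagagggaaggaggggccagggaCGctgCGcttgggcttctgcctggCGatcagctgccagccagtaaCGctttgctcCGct
Ntn5: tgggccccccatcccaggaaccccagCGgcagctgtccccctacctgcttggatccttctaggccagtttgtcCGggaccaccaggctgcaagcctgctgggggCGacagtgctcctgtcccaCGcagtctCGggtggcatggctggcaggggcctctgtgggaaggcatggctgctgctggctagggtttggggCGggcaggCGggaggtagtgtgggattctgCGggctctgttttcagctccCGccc
Epha1: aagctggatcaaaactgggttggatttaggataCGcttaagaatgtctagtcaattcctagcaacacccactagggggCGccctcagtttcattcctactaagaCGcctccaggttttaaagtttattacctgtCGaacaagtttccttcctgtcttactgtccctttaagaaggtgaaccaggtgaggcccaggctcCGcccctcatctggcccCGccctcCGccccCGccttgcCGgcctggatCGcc
The capitals crowd the part nearest the start site in the windows of both Unc5a and Epha1, and are spread along those of Ephb6 and Ntn5. The number of CpG did not sort single members by level, as Epha5, at 14.9 FPKM, had 8, fewer than Epha1.

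**Figure D2:**
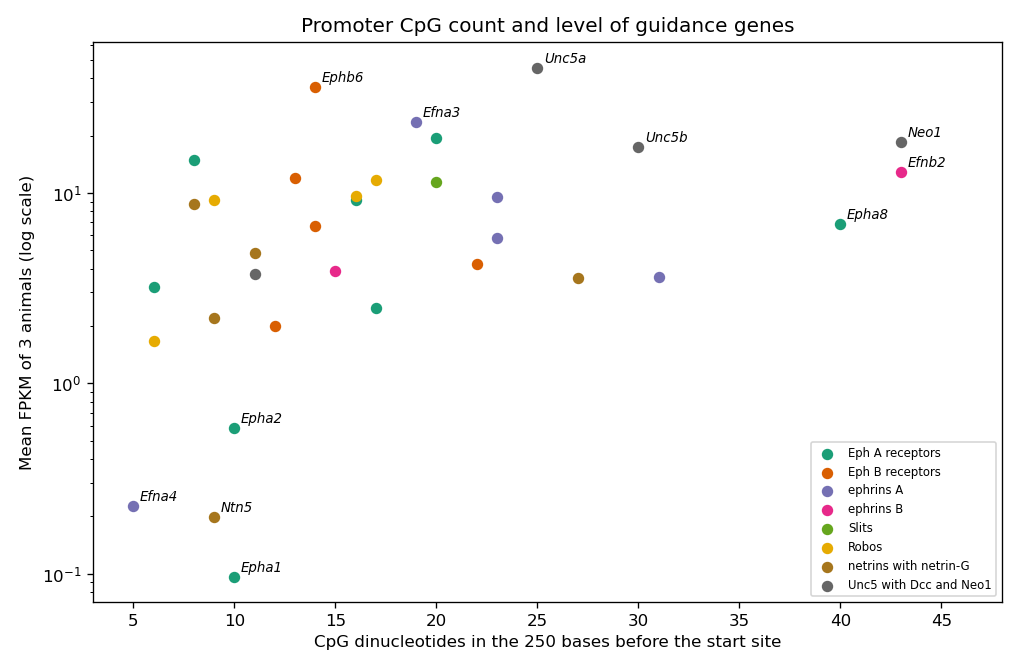
Mean FPKM of 3 animals (log axis) against the number of CpG dinucleotides in the 250 bases before the start site for the 34 members with a RefSeq promoter, coloured by family. The 4 members under 1 FPKM have 5 to 10 CpG, while Ephb6, among the highest in level, has 14 and Neo1 and Efnb2 have 43.

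Among the Eph A receptors, Epha4 (ENSRNOG00000013213, chromosome 9, 83111222 to 83253458 on the minus strand of Rnor_6.0), which binds ephrins of both classes, predominated. It measured 59.4, 58.8 and 62.2 FPKM in animals 32, 39 and 68, and took 51.8 ± 5.12% of the summed FPKM of the 9 Eph A genes (SD, n = 3). Epha4 was thus the highest of these genes in each animal, and its mean lay above that of 91.0% of the 13378 genes that averaged 1 FPKM or more. Epha7, a receptor for A ephrins, measured 15.2, 22.0 and 20.7 FPKM in the same order. Its range overlapped that of Epha5 (14.9 ± 0.932 FPKM), which it exceeded in 3 of 3 animals by 0.35 ± 0.20 on the log2 scale. Epha6 stood at 4.06, 11.0 and 12.3 FPKM, low in animal 32 and close together in the others. Epha8 stood at 4.09, 9.27 and 7.34 FPKM, also with its lowest value in animal 32. The ranges of Epha6 and Epha8 overlapped, and their order differed between animals.

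The remaining Eph A genes were low. Epha10, a receptor without kinase activity, measured 3.20 ± 0.461 FPKM and Epha3 2.47 ± 0.391. Epha2, best known from epithelia, was between 0.529 and 0.633 FPKM, which rested on 8.18 to 10.5 fragments per kilobase. Epha1, also an epithelial receptor, was between 0.0398 and 0.157 FPKM, or 0.616 to 2.77 fragments per kilobase. At this depth the order of animals for Epha1 cannot be read. Its locus also overlaps that of the cell adhesion gene Zyx by 145 bases on the opposite strand, and fragments there cannot be assigned without strand information.

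Ephb6 (chromosome 4, 70903253 to 70918514, plus strand), which lacks kinase activity, led the Eph B receptors. It measured 39.0, 41.5 and 27.5 FPKM in animals 32, 39 and 68, a share of 58.6 ± 6.19% of the 5 Eph B genes. Ephb6 was lowest in animal 68 but above every other Eph B gene in each animal. Ephb1, which acts at synapses and in axon guidance, measured 8.84, 11.5 and 15.6 FPKM, with its highest value in animal 68. Ephb3 showed the opposite order, at 8.98, 6.84 and 4.29 FPKM, so Ephb1 and Ephb3 were level in animal 32 and 1.83 apart on the log2 scale in animal 68. Ephb2, a partner of NMDA receptors at excitatory synapses, measured 4.24 ± 0.543 FPKM, and Ephb4, the receptor of venous endothelium, 1.99 ± 0.291.

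Against Epha4 in the same animal, all 12 other Eph receptors tested were lower (limma on the log2 ratio of FPKM + 0.1, Benjamini-Hochberg over 16942 genes), beside 91.1% of all genes lower than Epha4, so that count is near the background. None was higher, beside 5.39% of all genes. Epha4 has the highest mean of these receptors and was chosen as reference with earlier results of these data known. The direction of these counts therefore adds nothing to that rank. The nearest was Ephb6, with log2 ratios of -0.61, -0.50 and -1.18 in animals 32, 39 and 68 (mean -0.76, SE 0.15, limma adjusted p = 0.00491). That call was lost when variances were not drawn to a common prior (limma adjusted p = 0.0722). Epha7 followed at -1.65 (SE 0.13, limma adjusted p = 8.89e-05) and Epha5 at -2.00 (SE 0.09, limma adjusted p = 1.21e-05). Each of the 12, and Epha1, was below Epha4 in 3 of 3 animals. All these ratios share the values of Epha4, and in simulated data genes set equal to it were called too often, so these p-values are too small and the values by animal carry the comparison.

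A ephrins were headed by Efna3, with 20.0, 26.9 and 24.1 FPKM in animals 32, 39 and 68, or 55.4 ± 5.27% of the sum of 5 genes. Efna3 was the highest A ephrin in each animal. Efna5, which patterns cortical and thalamic connections, measured 12.1 and 12.4 FPKM in animals 32 and 39 but 4.16 in animal 68. It ranked above Efna1 (5.76 ± 1.32 FPKM), known from vessels and inflammation, in 2 of 3 animals only. Efna2 measured 3.61 ± 0.925 FPKM. Efna4 was between 0.0978 and 0.298 FPKM, on 1.62 to 5.27 fragments per kilobase.

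Efna1, Efna3 and Efna4 are neighbours on the minus strand of chromosome 2 in Rnor_6.0. Efna1 spans 188588796 to 188596222, Efna3 188637852 to 188645196 and Efna4 188655912 to 188660179, with 10.7 kb between Efna3 and Efna4. The mean of Efna3 was 104 times that of Efna4 and 4.11 times that of Efna1. These neighbours thus had quite unequal levels in this tissue.

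The B ephrins were more even. Efnb3, a midline repellent of corticospinal axons that Epha4 senses, measured 13.2, 19.1 and 16.5 FPKM in animals 32, 39 and 68. Efnb2, found on neurons and arterial endothelium, measured 18.1, 13.0 and 7.72 FPKM in the same order. Efnb2 was above Efnb3 in animal 32 and below it in the others, so their order is unsettled. Efnb1 was lower, at 3.89 ± 0.375 FPKM.

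Relative to Efnb3 in the same animal, Efna3 was higher (mean log2 ratio 0.54, higher in 3 of 3 animals) and 5 ephrins (Efna1, Efna2, Efna4, Efna5 and Efnb1) were lower (limma, adjusted over 16942 genes), beside 20.7% of all genes higher and 63.0% lower. The call for Efna3 was lost without animal 39 or 68, although its ratios of 0.59, 0.49 and 0.55 hardly differed. Efnb2, with log2 ratios of 0.46, -0.56 and -1.08, did not pass, except without animal 32 (lower, limma adjusted p = 0.0059). Efna5, at -0.13, -0.62 and -1.96, passed in limma (adjusted p = 0.00032) but not without animal 68 (0.401) or without moderation (0.271). The ratios to Efnb3 likewise share its 3 values, and limma estimated an unlimited prior degrees of freedom there and for the ratios to Neo1 below, so those p-values are too small as well.

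**Figure D3:**
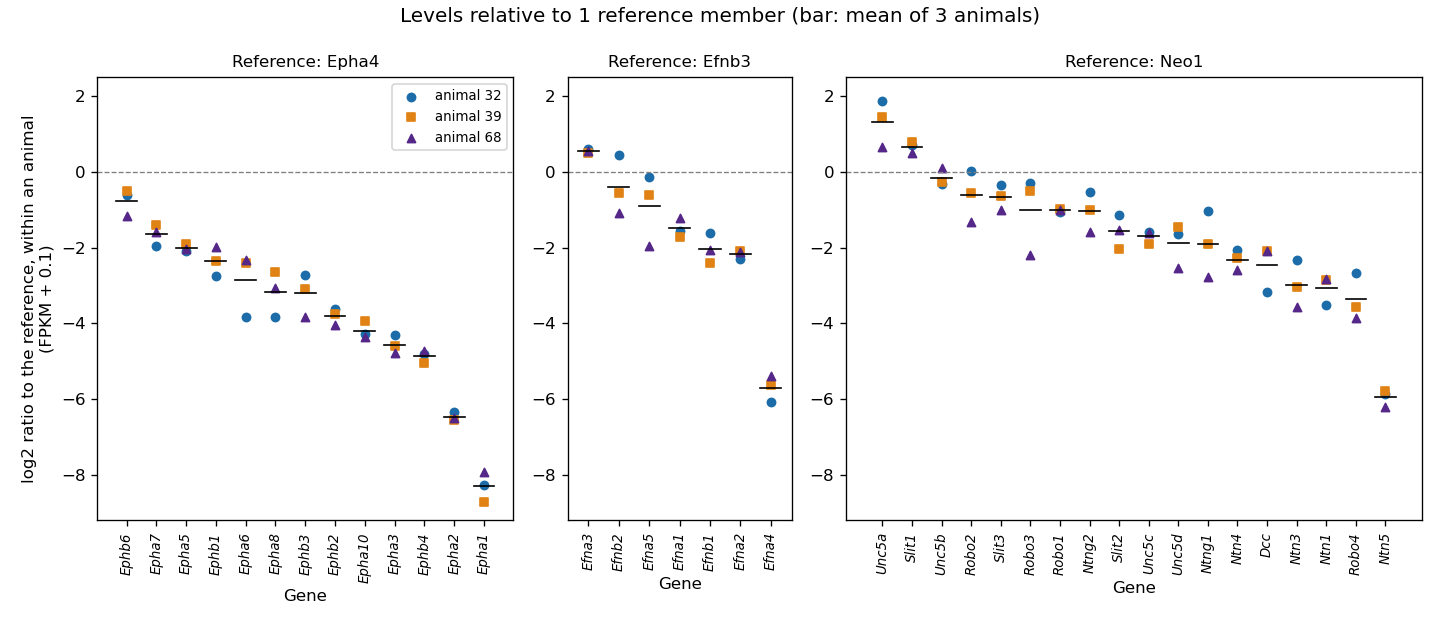
Within-animal log2 ratio of FPKM + 0.1 to Epha4 for the other Eph receptors (left), to Efnb3 for the other ephrins (middle) and to Neo1 for Slits, Robos, netrins and netrin receptors (right), in animals 32 (circles), 39 (squares) and 68 (triangles), with a bar at the mean. No Eph receptor reaches the dashed line at 0, Efna3 lies above it in each animal, and Unc5a and Slit1 lie above it in each animal on the right.

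Of the secreted Slit ligands, Slit1 (chromosome 1, 260843483 to 260992366, minus strand) was highest, with 21.2, 31.0 and 35.2 FPKM in animals 32, 39 and 68, or 62.0 ± 4.87% of the sum of 3 genes. Slit3 measured 10.3, 11.5 and 12.3 FPKM. The order Slit1, Slit3, Slit2 was the same in each animal, and neighbours in it had ranges that did not overlap. Slit2, the family member most studied at the midline, was at 6.23 ± 2.10 FPKM.

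The Robo genes were less clearly ordered. Robo2, a neuronal Slit receptor, measured 13.1, 12.3 and 9.79 FPKM in animals 32, 39 and 68. Robo3, the receptor of commissural neurons, measured 10.6, 12.8 and 5.30 FPKM. Robo1, the other main neuronal Slit receptor, measured 6.18, 9.06 and 12.3 FPKM. Robo2 was the highest of the 3 in animal 32, Robo3 in animal 39 and Robo1 in animal 68, so no order held across animals. Robo4, the endothelial member, was lowest in each animal at 1.67 ± 0.260 FPKM, where 5 endothelial markers summed to 77.8, 75.3 and 63.5 FPKM. Robo4 and Robo3 lie 1.85 kb apart on chromosome 8 in Rnor_6.0, with Robo4 at 39878955 to 39890942 on the plus strand and Robo3 at 39892792 to 39907478 on the minus strand, so their ends face each other and their loci do not overlap. Without strand information, fragments of transcripts that run past an annotated end there cannot be assigned.

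Netrin and netrin-G genes were low as a family, with a sum of 21.8 ± 0.400 FPKM over 6 genes. The membrane-anchored netrin-G genes headed it. Ntng2, a synaptic adhesion protein, measured 9.05, 8.92 and 8.17 FPKM in animals 32, 39 and 68, and Ntng1, its paralogue, 6.28, 4.71 and 3.53. Ntng2 exceeded Ntng1 in 3 of 3 animals. Among the secreted netrins, the basement membrane protein gene Ntn4 was at 3.56 ± 0.508 FPKM and Ntn3 at 2.21 ± 0.292. Ntn1, the classical attractant, measured 1.04, 2.41 and 3.39 FPKM, a span that takes it from below to above Ntn3. Ntn5 was between 0.127 and 0.239 FPKM, on 2.11 to 4.22 fragments per kilobase.

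Receptors for netrins summed to 95.6 ± 13.8 FPKM over Unc5a to Unc5d, Dcc and Neo1, against 21.8 ± 0.400 for the netrin and netrin-G genes. The latter sum includes Ntng1 and Ntng2, whose partners are Lrrc4c and Lrrc4 (below), so the 2 sums are not of matched ligands and receptors. Unc5a (chromosome 17, 10153994 to 10208360, minus strand), a repulsion and dependence receptor, was highest, at 47.7, 49.6 and 38.7 FPKM in animals 32, 39 and 68. Neo1 (neogenin), which binds repulsive guidance molecules as well as netrins, measured 13.0, 18.0 and 24.7 FPKM. Unc5a exceeded Neo1 in each animal, by 1.87, 1.45 and 0.65 on the log2 scale, so the margin was smallest in animal 68. Unc5b, a receptor of neurons and vessels, measured 10.4, 15.0 and 26.6 FPKM, below Neo1 in 2 animals and above it in animal 68. Dcc, the attraction receptor, was lowest of the group on average, at 1.34, 4.21 and 5.75 FPKM. Unc5c (5.68 ± 2.05 FPKM) and Unc5d (4.94 ± 1.40) overlapped in range with each other and with Dcc.

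Relative to Neo1 in the same animal, Unc5a was the only 1 of the 18 Slit, Robo, netrin and netrin receptor genes to pass as higher, and 14 passed as lower (limma, adjusted over 16942 genes), beside 15.9% of all genes higher and 63.2% lower. Without moderation of variances, an alternative added after the data were seen, 9 passed as lower (Slit3, Robo3, Ntng1, Ntng2 and Unc5d were lost), and Slit1 in place of Unc5a as higher. Slit3 and Robo3 were also lost as lower without animal 39 or 68, and Robo1 and Ntng2 without animal 39, while Robo2 passed as lower without animal 32. The call for Unc5a was also lost without animal 39 (limma adjusted p = 0.17). Slit1 was above Neo1 by 0.70, 0.78 and 0.51 on the log2 scale in animals 32, 39 and 68 and missed the threshold (limma adjusted p = 0.0607). Robo1 kept nearly the same ratio to Neo1 in each animal (log2 ratios from -1.06 to -0.99), as both genes had their lowest value in animal 32 and their highest in animal 68.

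Some members differed widely between animals. The highest animal exceeded the lowest by more than 2-fold, on FPKM + 0.1, in 9 of the 37 members with a mean of at least 1 FPKM, beside 14.5% of the 13378 genes at that level. The SD over animals on the log2 scale had a median of 0.33 over these members and 0.20 over these genes. Dcc (4.05-fold), Ntn1 (3.05), Epha6 (2.99) and Unc5b (2.54) were lowest in animal 32 and highest in animal 68. Efna5 (2.94-fold), Robo3 (2.39), Efnb2 (2.33) and Ephb3 (2.07) were lowest in animal 68, and Epha8 (2.23) was lowest in animal 32 and highest in animal 39. Of all 1934 genes over 2-fold, 1305 were lowest in animal 32 and 1334 highest in animal 68, so the first of these patterns was also that of many other genes. Fewer, 466 of the 1934, were lowest in animal 68, beside 4 of the 9 members. No test applies to these differences, since the animals belong to 1 group.

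The count leaned on single libraries. Without animal 32, Efna5 and Robo3 remained over 2-fold (2 of 37, beside 6.52% of all genes). Without animal 68, Dcc, Epha6, Epha8 and Ntn1 remained (4 of 37, beside 2.75%), and without animal 39, 7 of 37 were over 2-fold, beside 13.1%. At the other end, Epha4 varied by 1.06-fold, Ntng2 by 1.11 and Epha5 by 1.13 between animals.

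Marker genes of other cells and structures moved between the same libraries. Of the markers with a mean of at least 1 FPKM, 6 of 6 for oligodendrocytes, 7 of 7 for striatal neurons and 6 of 6 for choroid plexus were over 2-fold between animals, against 0 of 5 for endothelium and 2 of 7 for GABAergic neurons. Choroid plexus markers summed to 11.5, 631 and 7491 FPKM in animals 32, 39 and 68, mostly Ttr. Astrocyte markers summed to 428, 459 and 832 FPKM, and markers of cortical glutamatergic neurons to 1376, 1428 and 1239, with medians of 43.7, 36.0 and 15.9. No marker of these lists was at 0 in all 3 libraries. Of the lists not shown here, Fibcd1 (hippocampus) and Col1a2 (meninges and fibroblasts) were at 0 in all 3. The part of the marked cells and structures in the differences of the 9 members was not tested.

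**Figure D4:**
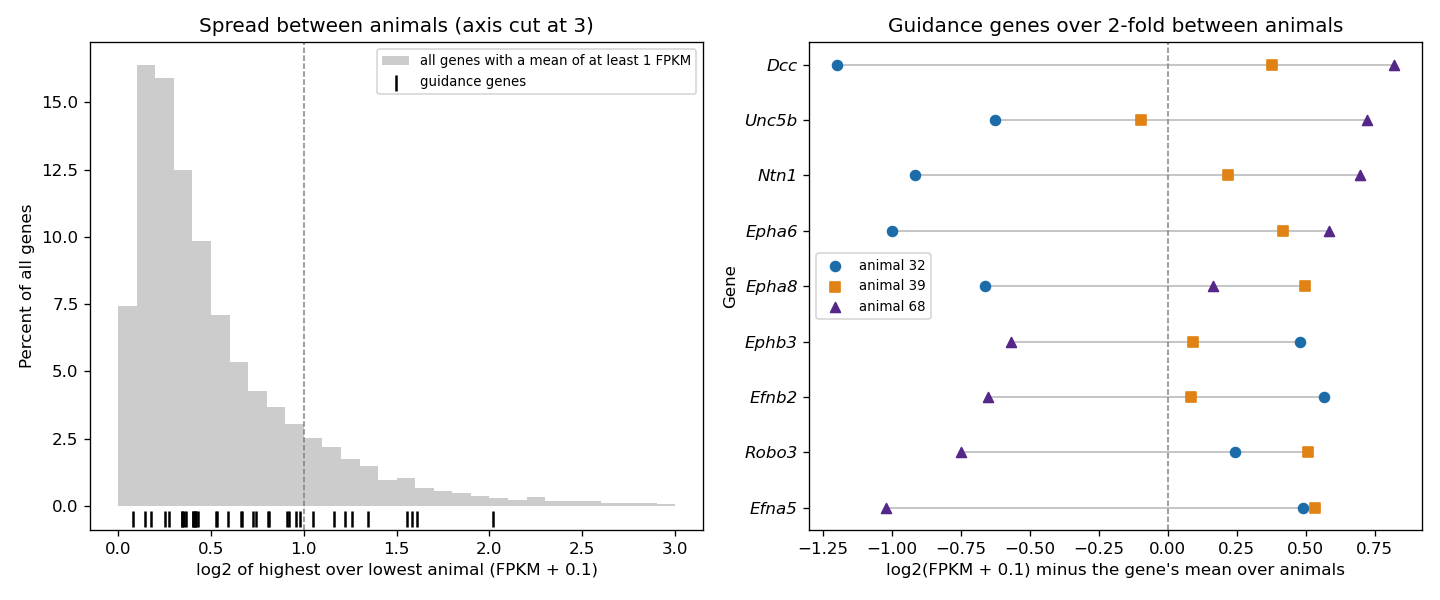
Left, the log2 ratio of the highest to the lowest animal (FPKM + 0.1) for 13378 genes averaging 1 FPKM or more as percent of genes (grey) and for the 37 guidance genes (ticks), with a dashed line at 2-fold. Right, the 9 members past that line, each as log2(FPKM + 0.1) minus its own mean, in animals 32 (circles), 39 (squares) and 68 (triangles): Dcc, Unc5b, Ntn1 and Epha6 are highest in animal 68, while Ephb3, Efnb2, Robo3 and Efna5 are lowest there.

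Partners of these systems were listed by their known roles. Of 21 Eph signalling partners found, 20 were above 1 FPKM in the limma test described above, beside 72.2% of all genes tested, and 1, Arhgef15, did not pass. Chn1, the Rac regulator alpha-chimaerin that acts downstream of Epha4, was highest at 328 ± 53.6 FPKM, followed by the kinase Pak1 (107 ± 36.2) and the synaptic exchange factor Kalrn (54.1 ± 13.1). Vav3, an exchange factor recruited by Eph receptors, measured 1.87, 3.92 and 10.8 FPKM in animals 32, 39 and 68. Chn2 (2.10-fold) and Abl2 (2.25-fold), likewise highest in animal 68, were the other 2 past 2-fold.

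Of 17 Slit and Robo partners, 15 were above 1 FPKM (72.2% of all genes), Prrg4 was below (13.9%) and Cxcr4 did not pass in limma. Nell2, a ligand of Robo3, was highest at 258 ± 12.4 FPKM, with Usp33, a deubiquitinase that acts on Robo1, at 54.7 ± 1.48 and the actin regulator Evl at 51.3 ± 9.46. Enah, another actin regulator of the Evl family, measured 10.3, 14.0 and 24.5 FPKM in animals 32, 39 and 68 and was the list's only gene past 2-fold at a mean of at least 1 FPKM. Nell2 was thus steadier than its receptor Robo3, with a ratio of 1.10 between the highest and lowest animal against 2.39.

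Of 20 netrin, Dcc, Neo1 and Unc5 partners, 18 were above 1 FPKM (72.2% of all genes), Trim67 was below (13.9%) and Draxin did not pass in limma. Lrrc4b, a postsynaptic adhesion protein of the netrin-G ligand family, was highest at 87.4 ± 4.35 FPKM, followed by Trim9, a ubiquitin ligase that binds Dcc, at 68.3 ± 15.8 and the focal adhesion kinase gene Ptk2 at 39.8 ± 5.07. The partners of Ntng1 and Ntng2, Lrrc4c (31.9 ± 10.4) and Lrrc4 (31.2 ± 7.91), named after their values were seen, exceeded them in level. Draxin, a secreted Dcc ligand, measured 0.117, 0.566 and 3.08 FPKM in animals 32, 39 and 68. Mtss1, a membrane and actin binding protein, measured 6.63, 9.85 and 15.5 FPKM. Draxin and Mtss1, the list's genes past 2-fold, were both lowest in animal 32 and highest in animal 68.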

How the data were processed

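Motor cortex mRNA of 3 animals was sequenced. To make the FPKM values, the authors counted fragments for every gene and normalized them, the final step being a Perl script, per the labels. Per the submitters' processing notes, the tools were HISAT2 2.0.4 and StringTie 1.3.0 and the build Rnor_6.0, with roles unstated. Whether libraries were stranded, and which annotation was used, is not given in the sources used here. FPKM holds no counts, so depth was inferred from loci of at most 400 bases, taking the span as gene length, as 16550241, 15460924 and 17670986 fragments (animals 32, 39 and 68). Then 82.2 to 86.6% of their values were within 0.02 fragments of a whole number, partly by construction, and depth covers counting error only.

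The tests of levels and ratios used limma 3.58.1 under R 4.3.3 (1-sample, moderated with trend, two-sided, pseudocount 0.1, mean of at least 0.1 FPKM) and Benjamini-Hochberg adjustment over all genes. On simulated data, unchanged genes were called less often than the threshold against 1 FPKM and more often against Epha4. With 3 animals the smallest p of an exact sign-flip test is 0.25. The rest used Python 3.11.15 with pandas 2.3.3. The members, references and lists were chosen with earlier results of these data known. All members are named; values by animal are given for the 2 highest of each family and for those over 2-fold, and of each partner list the 3 highest and those over 2-fold are named. Ngef and Dock1 of the partner lists, and the markers Pecam1, Otx2 and Foxj1, were not found by symbol. Marker lists also covered oligodendrocyte precursors, mural cells, hippocampus, thalamus, meninges, ependyma and microglia. Alternatives changed the pseudocount, filter, scaling, limma prior and fold, and left out each animal.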

Additional observations from a re-analysis of the deposited data

How the results depend on the processing

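No paired analysis was possible because all 3 animals form 1 group. No direction of a member's test reversed under any setting run, and no mean level of a member moved by more than its SD under any scaling run. Over all settings and members, calls against 1 FPKM or a reference were unchanged in 730 cases, lost in 33 and gained in 4. With each animal left out, members above 1 FPKM numbered 34 to 36 and those below 2 to 3; members over 2-fold between animals 2 to 7; members above Efnb3 0 to 1 and below it 4 to 6; members below Epha4 12 to 13; members above Neo1 0 to 1 and below it 10 to 15. With a filter of a mean of at least 1 FPKM, 0 members were below 1 FPKM, because the filter removes such genes. Without a trend in the limma prior, 0 ephrins were above Efnb3, and with no filter 2 genes, Slit1 and Unc5a, were above Neo1. Without moderation, 9 were below Neo1. At 1.5-fold, 20 of 37 members differed between animals (31.8% of all genes), and at 3-fold 2 did (4.66%). Scaling to equal totals brought Robo1 (2.06-fold) and Slit2 (2.01) past 2-fold and took Ephb3 (1.98) below it. Among the 4 members under 1 FPKM, fewer than 11 fragments per kilobase limit the precision.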
